A study of Homo sapiens with 5 samples.

Results

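The 40 genes described here encode the subunits of the SWI/SNF chromatin remodeling complexes and the related SMARC and CHD proteins. They were chosen by gene symbol and biotype among the 33857 genes of the deposited table: protein-coding genes whose symbol starts with SMARC, or with CHD and a digit, and 17 further named SWI/SNF subunits. No measured value enters this rule, but the set was picked with earlier results of the same comparison known, so the counts below describe the genes and support nothing beyond that. The RNA was poly(A+) RNA of H9, a line of human embryonic stem cells. The 2 mock control samples are labelled only as control H9 cells. The study describes its mock controls as clones that received the CRISPR/Cas9 vector without a guide, and the samples are read here as such. The 3 CFIm25-m samples are clones made with independent guides near the start codon of NUDT21, the gene of the polyadenylation factor CFIm25. The sample labels call these clones knockouts and the series title calls them knockdowns. The study instead describes clones with strongly reduced CFIm25 protein that lacks a short stretch at its N-terminus. On this reading each sample is 1 clone, so differences between clones and effects of the edited gene are measured together, and no clone was sampled again.

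The samples held between 18754108 and 23372391 reads. Values are normalized counts, meaning reads per gene after division by the sample's size factor. For NUDT21 they were 6503 and 6398 in mock control, and 4035, 3281 and 3400 in replicates 1, 2 and 3 of CFIm25-m. It fell by 0.86 on the log2 scale (SE 0.11, adjusted p = 0.00431). The markers of pluripotent stem cells were present in every sample, with POU5F1 (OCT4) at 30200 and 31430 in mock control and from 33170 to 38900 in the clones. Of the 10 markers, 4 (LIN28A, DNMT3B, SALL4 and NANOG) had lower values in every clone than in both mock controls and 3 (POU5F1, TDGF1 and PODXL) had higher values. Over all tested genes, the samples of the groups did not overlap for 36.8%. The summed level of the 10 markers was 233800 and 237900 in mock control against 211000 to 219400 in the clones. SALL4, LIN28A and DNMT3B, with log2 fold changes of -0.35, -0.41 and -0.33, had unadjusted p-values below 0.05 but did not pass the adjusted threshold. Of 23 tested markers of stem cells, germ layers, trophoblast and fibroblasts, 9 (39.1%) had an unadjusted p-value below 0.05, against 15.1% of all tested genes, and only DCX, a microtubule protein of young neurons, passed the adjusted threshold. Across all tested genes, 181 (0.941%) were called higher in CFIm25-m and 180 (0.936%) were called lower, at an adjusted p-value below 0.05.

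SWI/SNF complexes use the energy of ATP to slide or evict nucleosomes, which opens DNA to transcription factors. Each complex has 1 ATPase, either SMARCA4 (BRG1) or SMARCA2 (BRM), together with SMARCC, SMARCD, BCL7 and actin-like subunits. Canonical BAF and PBAF also hold SMARCB1 and SMARCE1, which the non-canonical form lacks. Further subunits set its type: ARID1A or ARID1B with DPF proteins in canonical BAF, ARID2 with PBRM1, BRD7 and PHF10 in PBAF, and BRD9 in the non-canonical form. SS18 proteins occur in canonical BAF and in the non-canonical form. Many positions in the complex are filled by 1 of several paralogs. In mouse embryonic stem cells the ATPase is SMARCA4 rather than SMARCA2, and the switch from ACTL6A, DPF2 and SS18 to ACTL6B, DPF1 and SS18L1 is known from the step from neural progenitors to neurons. The ISWI and CHD families are other ATPases of the same superfamily.

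CFIm25 binds the RNA motif UGUA upstream of poly(A) sites, so the 3′ ends of the transcripts were read for this motif, written here as TGTA. The lines that follow give 30 bases near the end of the canonical transcript of the genes that the results turn on (GENCODE release 44, read from the transcript sequences on the GRCh37 mapping and given by distance from the transcript end). Capitals mark TGTA and the poly(A) signals AATAAA and ATTAAA. They are shown so that the gene that rose, SMARCA2, can be set beside its paralog and beside 3 other subunits.
SMARCA2, from 35 to 6 bases before the end: tggtgctttcctAATAAAgaaataatttag
SMARCA4, from 100 to 71 bases before the end: tacTGTAttttattggacaggtcagactcg
DPF1, from 47 to 18 bases before the end: ttaacttgttctgTGTATTAAActgggcct
SS18L1, from 77 to 48 bases before the end: tttatgcttttggTGTAatctcttAATAAA
ARID1A, from 33 to 4 bases before the end: tgttaagAATAAATGTAcATTAAAtcttgg
In the DPF1 sequence TGTA shares bases with ATTAAA. The last 100 bases of the SMARCA2 transcript held no TGTA, and those of SMARCA4, DPF1, SS18L1 and ARID1A held 1 each. Genes that were not called also held none, among them SMARCC1, SMARCB1, SMARCA1, ACTL6A and CHD8. A link between the motif and the fold changes was not tested. On the transcript strand, 24 of the 39 tested remodeler genes (61.5%) had at least 1 TGTA in this window, and 54.9% of 14717 tested protein-coding genes did. A poly(A) signal of either form lay within the last 50 bases of 71.8% of the remodeler genes and of 81.8% of the protein-coding genes. These letters describe 1 annotated end for each gene, and the counts do not show which end was used. From its own sequencing of mRNA 3′ ends, the study reported insignificant changes in the use of poly(A) sites in its mutants.

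Of the 40 genes, 39 passed the filter on low values (2 or more samples with a value of 10 or higher). DPF3, a BAF subunit that reads histone marks, did not, with values between 1.92 and 5.40. SMARCA2 was called higher in CFIm25-m and no remodeler gene was called lower, by limma and also by edgeR and DESeq2. Of all genes, edgeR called 0.905% in each direction, and DESeq2 called 2.05% higher and 1.64% lower. At an unadjusted p-value below 0.05 there were 4 of 39 genes (10.3%), of which SMARCA2, CHD7 and SS18L1 had higher and DPF1 lower values, where 15.1% of all tested genes had such a p-value. The samples of the groups did not overlap for 13 genes (33.3%), against 36.8% of all tested genes. The median log2 fold change was -0.06 over the 39 genes and -0.01 over all tested genes, and 24 of the 39 (61.5%) had a negative value, against 51.8% of all. For 33 of the 39 genes (84.6%) the 95% confidence interval lay within a 1.5-fold change in either direction, which held for 50.5% of all tested genes. The genes with wider intervals were SMARCA2, DPF1, SS18L1, ACTL6B, SMARCD3 and SMARCE1. The SE reached 0.31 over the remodeler genes and 1.81 over all tested genes, and genes of like level were not compared. Most remodeler genes are thus bounded closely at this depth, and the plot of each gene in every sample shows how far the clones lay from the mock controls.

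**Figure D1:**
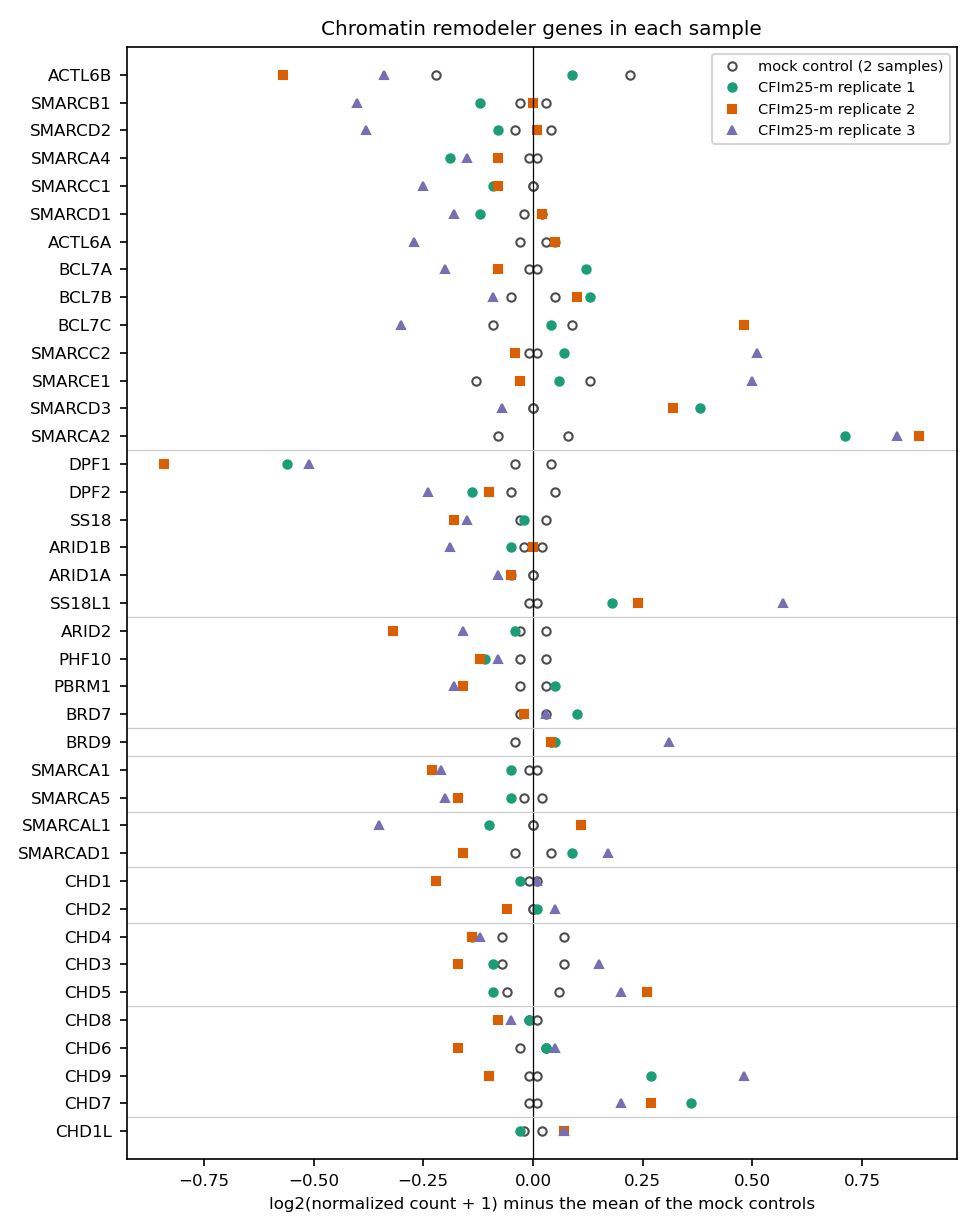
Each row is 1 of the 39 tested remodeler genes, grouped by role (grey lines), and the horizontal axis gives log2(normalized count + 1) minus the mean of the 2 mock controls. Open circles are the mock controls and filled symbols are the 3 CFIm25-m clones; SMARCA2 lies between 0.71 and 0.88 in all clones and DPF1 between -0.84 and -0.51, while 34 genes have a mean difference below 0.25 in size.

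SMARCA2 (ENSG00000080503, plus strand, chr9:1980290-2193624 in GRCh38) was counted at 217.8 and 245.1 in mock control, and at 378.9 in clone 1, 426.7 in clone 2 and 411.7 in clone 3, where clones 1 to 3 are CFIm25-m replicates 1 to 3. Every clone was above both mock controls. The mean rose from 232 ± 19.3 (SD, n = 2) to 406 ± 24.5 (SD, n = 3), a log2 fold change of 0.81 (SE 0.13, 95% confidence interval 0.52 to 1.10, adjusted p = 0.0144), or 1.75-fold. The call rests on few samples. The adjusted p-value was 0.276 without mock control replicate 1, 0.12 without mock control replicate 2, 0.0519 without CFIm25-m replicate 1 and 0.0532 without CFIm25-m replicate 2, with log2 fold changes between 0.72 and 0.89. Without CFIm25-m replicate 3 it was 0.00486, and without the mean-variance trend in all 5 samples it was 0.0976. The 10 tested genes nearest to SMARCA2 on chromosome 9 had a median log2 fold change of 0.05, from -0.17 to 0.49, and none of them was called. RefSeq lists 4 transcription starts for SMARCA2, which the counts per gene do not tell apart.

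SMARCA4 (ENSG00000127616), the other SWI/SNF ATPase, had normalized counts of 10490 and 10660 in mock control and 9253, 10000 and 9514 in CFIm25-m. Its samples did not overlap, with a log2 fold change of -0.14 (SE 0.09, adjusted p = 0.508) that did not pass the test. Per kb of the gene length in the deposited table, the mean level in mock control was 670 for SMARCA4 and 12.4 for SMARCA2. In mock control the level of SMARCA4 was 53.7 times that of SMARCA2, and in CFIm25-m 27.8 times. As a share of the summed level of both genes, SMARCA2 made up 1.73% and 1.91% in mock control against 3.36%, 3.49% and 3.54% in the clones. By level per kb, SMARCA4 was the more abundant of the ATPase transcripts in every sample.

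**Figure D2:**
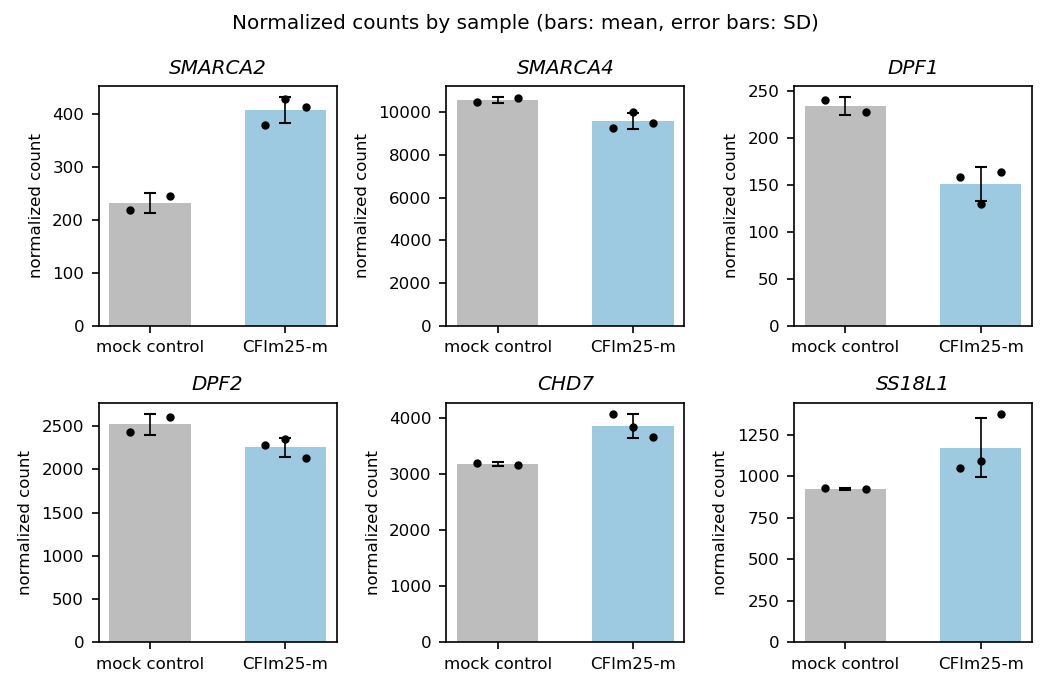
Normalized counts of 6 remodeler genes, with 1 point per sample, bars for the group mean and error bars for the SD (mock control n = 2, CFIm25-m n = 3). All 3 clones lie above the mock controls for SMARCA2, CHD7 and SS18L1 and below them for SMARCA4, DPF1 and DPF2; only SMARCA2 passed the test.

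The ATPases and the SMARCB1, SMARCC, SMARCD, SMARCE1, ACTL6 and BCL7 subunits were grouped as 14 core genes. None of the other 13 passed the test, while 1 of the 14, SMARCA2, had an unadjusted p-value below 0.05 (7.14%, against 15.1% of all tested genes). SMARCC1 (BAF155), a scaffold subunit, was among the most abundant, with normalized counts of 10910 and 10970 in mock control and 10280, 10330 and 9188 in CFIm25-m (log2 fold change -0.14, SE 0.10, adjusted p = 0.528). SMARCC2 (BAF170), its paralog, was counted at 2342 and 2310 in mock control and at 2438, 2258 and 3308 in CFIm25-m (0.18, SE 0.15, adjusted p = 0.599). Replicate 3 lay farthest from the mock controls, and without it the log2 fold change of SMARCC2 was 0.01. SMARCB1 (SNF5), which contacts the nucleosome, had values of 4235 and 4385 and of 3953, 4313 and 3263 (-0.17, SE 0.12, adjusted p = 0.525). Here too replicate 3 lay farthest from the mock controls, and the groups overlapped.

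The SMARCD subunits link the core to transcription factors. SMARCD2 was counted at 2606 and 2471 in mock control and at 2402, 2548 and 1944 in CFIm25-m (log2 fold change -0.15, SE 0.12, adjusted p = 0.582). SMARCD3 was far lower, at 172.9 and 172.7 against 224.5, 216.1 and 164.5 (0.21, SE 0.18, adjusted p = 0.608), with replicate 3 below both mock controls and the other clones above them. Among the actin-like subunits, ACTL6A (BAF53A) had values of 1978 and 2051 in mock control and 2086, 2087 and 1669 in CFIm25-m (-0.06, SE 0.12, adjusted p = 0.852). Its direction turned to 0.05 without replicate 3. ACTL6B (BAF53B), known from neurons, stayed near the filter at 47.3 and 34.7 against 43.1, 27.0 and 31.7 (-0.27, SE 0.31, adjusted p = 0.710). The mock controls themselves differed by 0.43 on the log2 scale for ACTL6B, more than for any other tested remodeler gene. The remaining core genes SMARCD1, SMARCE1, BCL7A, BCL7B and BCL7C had log2 fold changes between -0.10 and 0.18.

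The DPF and SS18 subunits held the other large values. DPF1 (BAF45B), a histone reader known from neurons, had normalized counts of 240.9 and 227.8 in mock control and 158.4, 130.5 and 164.5 in CFIm25-m. All clones were below both mock controls, with a log2 fold change of -0.64 (SE 0.16, 95% confidence interval -1.0 to -0.27) that missed the threshold at an adjusted p of 0.0965. Without CFIm25-m replicate 3 it passed, at 0.0256. DPF2 (BAF45D), its widely expressed paralog, was counted at 2433 and 2605 in mock control and at 2278, 2353 and 2129 in CFIm25-m (-0.16, SE 0.09, adjusted p = 0.446). SS18L1 (CREST), also known from neurons, had values of 929.0 and 920.7 in mock control and 1049, 1089 and 1375 in CFIm25-m (0.33, SE 0.13, adjusted p = 0.254). All clones were above the mock controls, replicate 3 the most, and without it the log2 fold change was 0.21. SS18 was counted at 2923 and 3039 against 2949, 2638 and 2694 (-0.11, SE 0.09, adjusted p = 0.595), with overlapping groups.

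The subunits known from neurons thus did not share a direction: SS18L1 had higher and DPF1 lower values in all 3 clones, and ACTL6B overlapped. Of the 9 neural markers, DCX fell from 282.4 and 273.1 to 124.3, 135.0 and 118.3 (log2 fold change -1.14, adjusted p = 0.0064), and the markers PAX6, LHX2 and NEUROG2 were below 10 in every sample. The summed level of these 9 markers was between 513 and 556 in mock control and from 318 to 366 in the clones. Without DCX the sums of the other 8 markers overlapped, at 273 and 240 in mock control and 193, 223 and 248 in the clones. SOX1, FABP7, TUBB3 and ELAVL3 each had lower values in every clone than in both mock controls. Their log2 fold changes were -0.99, -0.63, -0.64 and -0.49, and none passed the adjusted threshold. Over all tested genes, 36.8% had no overlap between the groups. ELAVL4, an RNA-binding protein of neurons, had higher values in the clones, at 43.1, 33.3 and 77.9 against 17.3 and 11.6. Its log2 fold change was 1.70 (adjusted p = 0.068). PAX6 and LHX2 also had higher values in every clone than in both mock controls, but were too low to be tested. The neural markers thus did not share a direction. In bulk RNA, fewer cells of a type and less RNA per cell cannot be told apart, and the part of such cells in the values of DPF1 was not tested.

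ARID1A and ARID1B are the DNA-binding ARID subunits of canonical BAF. ARID1A (BAF250A) had normalized counts of 5439 and 5454 in mock control and 5259, 5254 and 5155 in CFIm25-m (log2 fold change -0.06, SE 0.09, adjusted p = 0.774). ARID1B (BAF250B) had values of 2512 and 2569 against 2461, 2533 and 2222 (-0.08, SE 0.09, adjusted p = 0.719). For ARID1A the 95% confidence interval was -0.25 to 0.13. The groups did not overlap for ARID1A, yet its difference was small against the interval.

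In PBAF, ARID2 was counted at 2167 and 2090 in mock control and at 2077, 1709 and 1908 in CFIm25-m (log2 fold change -0.17, SE 0.10, adjusted p = 0.475). PBRM1 (BAF180), with its row of bromodomains, had values of 2537 and 2442 against 2582, 2230 and 2194 (-0.10, SE 0.10, adjusted p = 0.686). Neither passed the test, and clone 1 was above both mock controls for PBRM1. PHF10 and BRD7 had log2 fold changes of -0.10 and 0.04. BRD9, the bromodomain subunit of the non-canonical complex, was counted at 1218 and 1285 in mock control and at 1292, 1283 and 1555 in CFIm25-m (0.13, SE 0.11, adjusted p = 0.607). Replicate 3 stood highest, and replicate 1 was only just above both mock controls.

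SMARCA5 (SNF2H) and SMARCA1 (SNF2L) are the ATPases of the ISWI complexes, which space nucleosomes. SMARCA5 had normalized counts of 5911 and 5717 in mock control and 5603, 5180 and 5078 in CFIm25-m (log2 fold change -0.14, SE 0.09, adjusted p = 0.510). SMARCA1 had values of 2382 and 2419 against 2323, 2040 and 2081 (-0.16, SE 0.09, adjusted p = 0.452). All clones lay below the mock controls for both genes, by less than the test requires. SMARCAL1, which reverses stalled replication forks, and SMARCAD1 had log2 fold changes of -0.11 and 0.03.

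Of the 10 CHD genes, 5 had positive and 5 negative values, with a median log2 fold change of -0.01 and a range from -0.13 to 0.28. All 10 had a confidence interval within 1.5-fold in either direction. CHD7, mutated in CHARGE syndrome, was counted at 3203 and 3164 in mock control and at 4077, 3844 and 3660 in CFIm25-m. Every clone was above the mock controls, with a log2 fold change of 0.28 (SE 0.09, 95% confidence interval 0.08 to 0.48, adjusted p = 0.184) that did not pass, although it passed at 0.0147 without CFIm25-m replicate 3. CHD9, of the same subfamily, had values of 877.1 and 894.6 against 1065, 829.2 and 1232 (0.22, SE 0.15, adjusted p = 0.531), so the clones disagreed. CHD8, an ATPase linked to autism, had values of 3884 and 3836 against 3841, 3654 and 3729 (-0.05, SE 0.09, adjusted p = 0.839).

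CHD4 (Mi-2β), an ATPase of the NuRD complex, had normalized counts of 787.2 and 868.5 in mock control and 749.7, 749.9 and 760.8 in CFIm25-m (log2 fold change -0.13, SE 0.10, adjusted p = 0.562). In GENCODE release 44, 46.9% of its exonic bases are also exonic in other genes on the same strand. The gene that shares most of them is protein-coding and not among the genes of the table, so the level of CHD4 is uncertain. The same holds for 18.9% of the bases of SMARCE1. For CHD1L 63.2% are shared, most of all with a long non-coding RNA. CHD1, which binds H3K4 methylation, was counted at 1692 and 1719 against 1669, 1467 and 1719 (-0.08, SE 0.10, adjusted p = 0.747). CHD2, CHD3, CHD5, CHD6 and CHD1L had log2 fold changes between -0.04 and 0.12.

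Levels were compared between genes per kb of gene length. By the length in the deposited table, the highest means in mock control were 1431 for SMARCC1, 945 for SMARCD1, 693 for SMARCA5, 680 for SMARCD2 and 670 for SMARCA4. By the length of the canonical transcript the order changed, with 1895 for SMARCA4, 1722 for SMARCC1, 1479 for SMARCD1, 1086 for ACTL6A and 1030 for SMARCD2. The deposited length was between 1.00 and 5.13 times the canonical one, so the order of neighbouring genes depends on it. SMARCA2 was low on both scales, at 12.4 and 40.3, and so was CHD5, a CHD ATPase known from neurons, at 13.9 on each.

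In 12 pairs of paralogs, the log2 ratio of the levels per kb was taken in each sample. The ratio of SMARCA4 to SMARCA2 was 5.82 and 5.67 in mock control and 4.84, 4.78 and 4.76 in CFIm25-m, a shift of -0.95. No other pair moved as far, and the clones differed among themselves by an SD of 0.04. DPF2 over DPF1 went from 2.65 and 2.83 to 3.15, 3.48 and 3.00, a shift of 0.47. SS18 over SS18L1 went from 1.38 and 1.45 to 1.22, 1.00 and 0.70, a shift of -0.44, or -0.30 without replicate 3. For SMARCC1 over SMARCC2 the shift of -0.32 rested on replicate 3, at 1.64, and was -0.10 without it.

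ARID1A over ARID1B and SMARCA5 over SMARCA1 each shifted by 0.02. Their samples overlapped, as did those of SMARCD1 over SMARCD2 (shift 0.06), ACTL6A over ACTL6B (0.22), CHD4 over CHD3 (-0.10) and DPF2 over DPF3 (-0.49, with DPF3 under the filter). SMARCD1 over SMARCD3 shifted by -0.30 and CHD1 over CHD2 by -0.08 with no overlap. In all, 6 of the 12 pairs had no overlap between the groups. Of all tested genes 36.8% had none, a share over single genes, and no such share was made for ratios of pairs. These shifts are descriptions with no test.

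**Figure D3:**
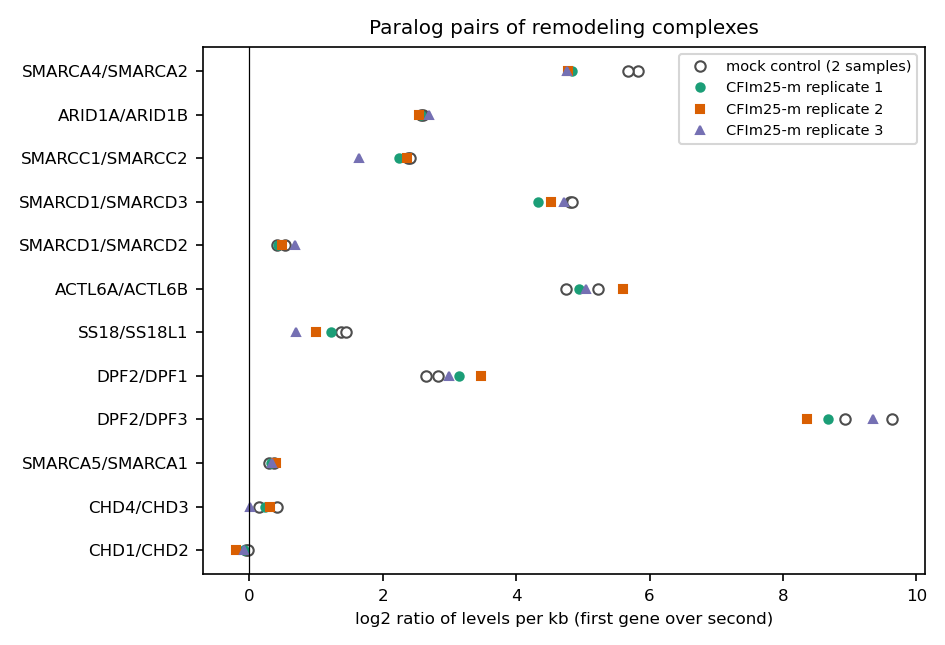
The horizontal axis gives the log2 ratio of the levels per kb (normalized count over gene length) of the first gene to the second gene in 12 paralog pairs. Open circles are the 2 mock controls and filled symbols the 3 CFIm25-m clones; the SMARCA4/SMARCA2 ratio lies between 4.76 and 4.84 in the clones and at 5.67 and 5.82 in the mock controls.

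The clones did not contribute alike. Clone 3 was the farthest from the mock controls for 18 of the 39 genes (46.2%), clone 2 for 15 (38.5%) and clone 1 for 6 (15.4%), while over all tested genes the shares were 51.3%, 25.4% and 23.2%. Below both mock controls lay 19, 22 and 24 genes in clones 1, 2 and 3, and above both lay 15, 10 and 14. No share over all tested genes was made for these counts. A sample can lie outside both mock controls without a difference between the groups, so these counts alone do not show a shift of the remodeler genes. The median SD of log2 values among the clones was 0.12 for the remodeler genes and 0.19 for all tested genes, with no match for level. BCL7C differed most among the clones, with clone 2 at 1.71 times clone 3. The summed reads of the 40 genes were 4284 and 4276 per 1000000 reads in mock control and 4361, 4235 and 4341 in CFIm25-m.

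The partner subunits of these and other remodeling complexes were taken as a list of 68 genes, of which 67 were tested. HDAC1, a deacetylase of the NuRD complex, was the only one called, with normalized counts of 4321 and 4472 in mock control and 3308, 3077 and 3038 in CFIm25-m. It fell by 0.49 on the log2 scale (SE 0.09, adjusted p = 0.0265), while its paralog HDAC2, counted at 7109 and 7289 against 7676, 7451 and 6560, had a log2 fold change of 0.00. The HDAC1 call was lost without the mean-variance trend and without either mock control or either of clones 1 and 2, at adjusted p-values between 0.0604 and 0.428. No partner gene was called higher by limma, edgeR or DESeq2.

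Of the 67 tested partners, 8 (11.9%) had an unadjusted p-value below 0.05, 46 (68.7%) had negative values and the median log2 fold change was -0.06. Over all tested genes these values were 15.1%, 51.8% and -0.01. By complex, 2 of 12 ISWI partners, 2 of 10 NuRD subunits, 2 of 30 INO80, SRCAP and TIP60 subunits, and 2 of 12 other SNF2-family ATPases had such a p-value, and none of the SWI/SNF subunits BICRA, BICRAL and ACTB. CECR2, which pairs with ISWI ATPases, was counted at 5778 and 5834 in mock control and at 4419, 4283 and 4747 in CFIm25-m (-0.37, SE 0.09, adjusted p = 0.0764). It passed only in DESeq2, with a replicate block and without CFIm25-m replicate 3, and was named after its values were seen. With the block and without replicate 3, the fold changes rest on the same samples.

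**Figure D4:**
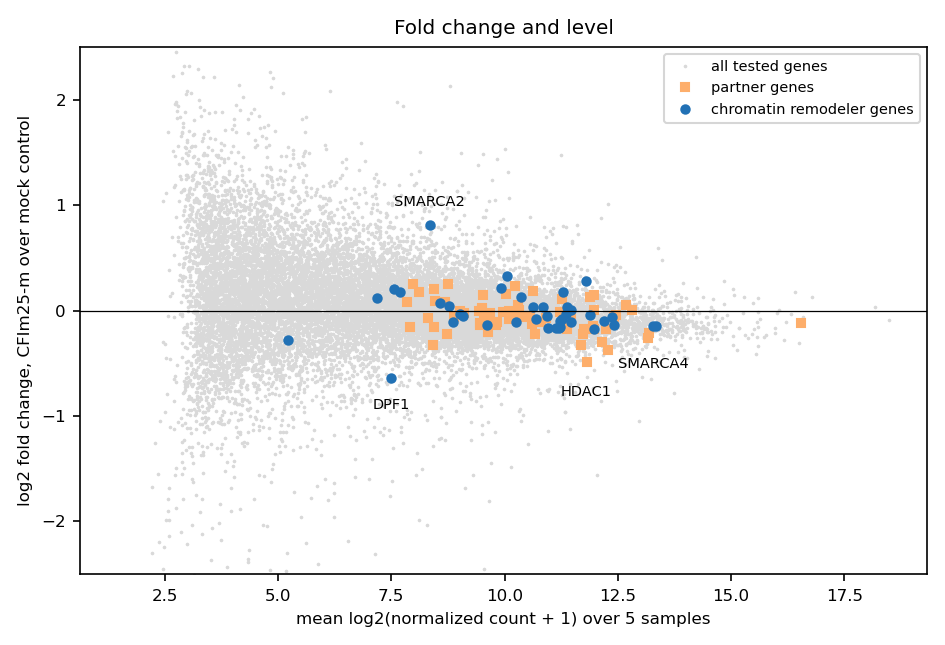
The vertical axis gives the log2 fold change of CFIm25-m over mock control and the horizontal axis the mean log2(normalized count + 1) over the 5 samples, for all 19232 tested genes (grey), the 67 partner genes (squares) and the 39 remodeler genes (circles). The axis is limited to 2.5 in either direction, which leaves out 55 genes, none of them a remodeler or partner gene; SMARCA2 at 0.81 and DPF1 at -0.64 lie farthest from 0 among the remodeler genes.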

How the data were processed

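The authors deposited 1 table of normalized counts, a signal in which the read count of each gene is divided by a size factor per sample. The submitters' processing notes name HISAT2, featureCounts, Subread, DESeq2 and hg38, and the annotation release and strand setting are not given in the sources used here. Values were whole multiples of the value of 1 read (100% whole within 0.01 reads), giving between 18754108 and 23372391 reads per sample. Columns of the authors' own comparison (group means, fold changes, p-values) were not used.

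The test was limma 3.58.1 (R 4.3.3) with a mean-variance trend, fitted to log2(value + 1) for the 19232 genes with at least 10 in at least 2 samples, without covariates, with Benjamini-Hochberg adjustment at 0.05. The pseudocount makes the fold changes of low genes too small. P-values set the difference between the groups against the spread between clones, which the fit moderated by the trend over all tested genes. With 10 arrangements of the samples, a permutation test could not pass 0.05. The alternatives changed the scaling (TMM), the filter, the pseudocount or the trend, used recovered reads in edgeR 4.0.16 or DESeq2 1.42.0, added the replicate number as a block, or left out 1 sample. On simulated counts of 18799 genes for this comparison, limma recovered 66% of genes changed 2-fold and 96.8% of those changed 4-fold, and 3.7% of its calls were false. The simulation held no clone that departs from the others over many genes, so these shares may not hold for the real samples.

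The members, lists and pairs were chosen with earlier results of these data known. Genes named in full were those past the threshold, 17 further genes in fixed roles, and those with the smallest p-values up to 25. Gene lengths of canonical transcripts, 3′ ends and shared exons came from GENCODE release 44 by gene ID, and starts from RefSeq (GRCh38.p14), where 33 of the 40 genes matched.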

Additional observations from a re-analysis of the deposited data

How the results depend on the processing

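Of 349 values of the 25 fully named genes under 14 alternatives, 338 kept direction and side of the threshold, 5 lost and 4 gained a call, and 2 reversed: ACTL6A had a log2 fold change of 0.05 with a replicate block, and between -0.11 and 0.05 when 1 sample was left out, the highest without CFIm25-m replicate 3. The lost calls were all of SMARCA2. The gained calls and the reversals came from the replicate block and from leaving out CFIm25-m replicate 3. In both settings the fold changes rest on the same samples. Without the mean-variance trend, 21 genes were called higher and 25 lower over all tested genes, with 0 remodeler genes higher and 0 partner genes lower. DESeq2 called 349 higher and 279 lower, and 2 partner genes lower. Leaving out 1 sample at a time gave between 25 and 536 genes higher and between 34 and 533 lower, between 0 and 2 remodeler genes higher and between 0 and 1 lower, and between 0 and 3 partner genes lower, with the highest counts without CFIm25-m replicate 3. The cause was not tested. Where a mock control was left out, the lone sample was assumed to vary like the clones.

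With the replicate number as a block, 1043 genes were called higher and 1064 lower, with 2 remodeler genes higher (SMARCA2 and CHD7), 1 lower (DPF1) and 5 partner genes lower. Replicate 3 exists only in CFIm25-m, so with this block the fold changes come from replicates 1 and 2 alone. The setting is therefore not independent of the one without CFIm25-m replicate 3. Samples with the same number had correlations of 0.007 and 0.018 in their deviations from the group means, and the clones are independent, so the numbers do not pair them. Reads per gene limit ACTL6B and DPF3 most, and no isoform or poly(A) site can be read from counts per gene.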

Other observations

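Some genes with related names lie outside the rule. SS18L2, a small protein-coding relative of SS18, had normalized counts of 563.6 and 565.5 in mock control and 639.4, 666.2 and 580.0 in the clones (log2 fold change 0.15, adjusted p = 0.546). BRD7P2, a processed pseudogene of BRD7, was counted at 79.5 and 81.1 in mock control and at 73.2, 60.3 and 55.8 in CFIm25-m (-0.35, adjusted p = 0.495), and its reads may be shared with BRD7. SMARCA5-AS1, antisense to SMARCA5, stayed between 0 and 3.01, and the pseudogenes of SMARCE1 stayed at or below 5.79.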
